A study of Mus musculus with 8 samples.

Results

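The 10 genes described here belong to the Nodal and bone morphogenetic protein (BMP) pathways. They are the ligand Nodal, its antagonists Lefty1 and Lefty2, its co-receptor Tdgf1, the inhibitory Smad7, the ligand Bmp4, its receptor Bmpr1a, and the BMP target genes Id1, Id2 and Id3. They were chosen by name for their role in the 2 pathways, with earlier results of these data known. All 10 were present among the 22878 gene rows of the deposited tables. Against the embryonic stem cell (ESC) line R1, Lefty1 rose about 5-fold in the epidermal line S8 and the stomach line T2, and Id1 and Id3 fell in the adipocyte progenitor line 32.

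Nodal is a secreted ligand of the TGF-beta family that signals through activin receptors and the co-receptor Tdgf1 (Cripto) to Smad2 and Smad3. Lefty1 and Lefty2 are transcribed in response to Nodal and then block it outside the cell, while Smad7 blocks TGF-beta family receptors inside the cell. BMP4 signals through Bmpr1a to Smad1, Smad5 and Smad9, which switch on the Id genes. Id proteins hold basic helix-loop-helix factors off DNA, and in mouse ESC grown in serum they are known for holding back neural differentiation.

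Gene expression was measured by RNA sequencing of bulk cultures in 8 libraries of 5 mouse pluripotent lines. R1 is an ESC line derived from an embryo. The other 4 lines are induced pluripotent stem cells (iPSC) made a second time from tissues of adult all-iPSC mice, whose cells all carry doxycycline-inducible Oct4, Sox2, c-Myc and Klf4. Every line was grown with serum and LIF on a feeder layer of mitomycin-treated mouse embryonic fibroblasts.

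R1 was sequenced as 2 libraries. The mesodermal lines, 16-6 of hematopoietic and 32 of adipocyte progenitor origin, had 2 libraries each. S8, of epidermal (ectoderm) origin, and T2, from the stomach lining (endoderm), had 1 library each. Each tissue was thus represented by a single line, so a difference between tissues cannot be told apart from a difference between lines, and for S8 and T2 also not from a difference between libraries.

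Values are fragments per kilobase of transcript and per 1000000 mapped fragments (FPKM), all divided by the same constant of 12725.7 so that the median library total was 1000000. Each library held about 15500000 to 16700000 fragments, as implied by the width of the confidence limits that Cufflinks gives each gene. The study lists several times more reads for S8 and T2 than for the other libraries, with a smaller uniquely mapped share, so a difference of both these lines from the rest cannot be told apart from a difference in sequencing. The member with the fewest fragments in any library was Id1 with 109, and the limits ran from 1.68% to 19.2% on either side of a member's value. These limits overlapped in 24 of the 30 pairs of replicate libraries of a member, and the largest gap within a pair was 0.50 on the log2 scale, for Id1 in line 32.

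For differences between lines, log2(FPKM + 1) was fitted for the 13693 genes that reached 1 FPKM in any library, with limma, and p-values were adjusted by the Benjamini-Hochberg method over all these genes. A gene was called where the adjusted p was below 0.05 and the difference was at least 2-fold, and "rose" and "fell" are used only of called differences. The spread came from the 3 lines with 2 libraries, so S8 and T2 were taken to vary like them. The labels do not say that libraries of a line came from separate cultures, though the paper calls them biological replicates. The p-values therefore measure only the spread between libraries. That spread was close to counting error. The variance between a line's 2 libraries was 1.34 times the sampling variance in R1, 1.08 times in 16-6 and 1.29 times in 32. The standard errors for S8 and T2 rest on the same small spread. A permutation test of single values with 2 libraries against 2 cannot give a p below 0.333. Because the cultures are bulk samples, fewer cells that express a gene and less RNA per cell cannot be told apart.

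RefSeq promoters of the GRCm38.p6 build were found for 6 of the 10 members (Nodal, Tdgf1, Bmp4, Bmpr1a, Id2 and Id3). The promoter sequences of 3 members are shown because they hold matches, on either strand, to short motifs bound by the transcription factors of the 2 pathways. Each covers the 250 bases before the transcription start in the direction of transcription, with the matches in capitals.

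Id2, chr12:25096093-25096342, minus strand: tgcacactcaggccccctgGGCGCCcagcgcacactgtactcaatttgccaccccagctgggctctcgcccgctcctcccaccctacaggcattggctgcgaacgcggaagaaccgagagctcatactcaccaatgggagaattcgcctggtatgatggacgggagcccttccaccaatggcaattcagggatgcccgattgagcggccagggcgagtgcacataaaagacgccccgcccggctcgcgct

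Id3, chr4:136143572-136143821, plus strand: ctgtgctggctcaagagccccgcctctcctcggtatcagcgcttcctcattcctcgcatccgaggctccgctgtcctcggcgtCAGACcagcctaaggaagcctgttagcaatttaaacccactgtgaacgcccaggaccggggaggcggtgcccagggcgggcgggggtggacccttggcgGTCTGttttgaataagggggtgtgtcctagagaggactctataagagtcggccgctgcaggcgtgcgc

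Tdgf1, chr9:110946159-110946408, minus strand: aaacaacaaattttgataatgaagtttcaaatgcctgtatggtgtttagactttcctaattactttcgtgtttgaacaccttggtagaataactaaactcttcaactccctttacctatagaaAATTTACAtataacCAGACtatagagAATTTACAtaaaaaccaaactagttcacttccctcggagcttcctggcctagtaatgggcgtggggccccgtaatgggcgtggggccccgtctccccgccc

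The capitals in Id2 are GGCGCC, a GC-rich Smad1-type element that reads the same on both strands, at base -231 from the transcription start. Those in Id3 are GTCTG or its reverse CAGAC, which contains the Smad3 and Smad4 core, at bases -167 and -68. In Tdgf1 the motif AATNNACA, of the FoxH1 type, stood at bases -127 and -101, on either side of 1 CAGAC at -113. GGCGCC also stood at -198 in Bmpr1a, while Nodal and Bmp4 held none of the 3 motifs in this window. Over all 32851 promoters of the same length, 9.59% held GGCGCC, 42.2% held GTCTG and 10.9% held AATNNACA, so a match is a description of the sequence and not a site of binding.

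Nodal, on chromosome 10 of the mm9 build (chr10:60880720-60888085, plus strand), had its highest levels in S8 and T2. Its FPKM was 24.5 and 29.8 in R1, 29.4 and 29.6 in 16-6, 21.7 and 21.3 in 32, 45.7 in S8 and 47.4 in T2. S8 and T2 lay above every library of the other lines, and both libraries of line 32 lay below all others, whereas R1 and 16-6 overlapped. Against R1 the log2 difference was 0.74 ± 0.11 (SE) in S8 and 0.79 ± 0.11 in T2 (limma, adjusted p = 0.00325 and 0.00363), which is 1.67-fold and 1.73-fold and under the 2-fold minimum. The difference was -0.32 ± 0.093 in line 32 (adjusted p = 0.0331). Line 32 was called lower than both S8 and T2, by 1.06 and 1.11 on the log2 scale (adjusted p = 0.00125 and 0.00174), and the call against S8 was lost with quantile normalization, at -0.93. For 16-6 against R1 the difference was 0.12, with a 95% interval from -0.12 to 0.36.

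Tdgf1, the co-receptor that Nodal needs and a common marker of the pluripotent state, was the most abundant member in every library (chr9:110842112-110848662, minus strand). Its FPKM was 621 and 663 in R1, 421 and 430 in 16-6, 556 and 550 in 32, 644 in S8 and 607 in T2. The 16-6 libraries lay below all others, those of 32 came next, and R1 overlapped S8 and lay above T2. The log2 difference from R1 was -0.59 ± 0.048 in 16-6 and -0.21 ± 0.048 in 32 (limma, adjusted p = 0.000669 and 0.0140), neither reaching 2-fold. For S8 it was 0.00, with an interval from -0.15 to 0.16, and for T2 -0.08, with an interval from -0.23 to 0.07. With quantile normalization the S8 value became -0.33 (adjusted p = 0.00596). The 10 pluripotency markers, of which Tdgf1 is 1, had a mean log2 level of 7.59 in both libraries of 16-6, against 8.31 and 8.37 in R1, 8.34 and 8.31 in 32, 8.17 in S8 and 7.74 in T2. The part of this in the Tdgf1 level was not tested.

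Lefty1 and Lefty2 are neighbours on chromosome 1 in the same orientation (chr1:182865170-182868532 and chr1:182823250-182829233, both plus strand), 35936 bases apart. Lefty1 had the widest range of all members. Its FPKM was 54.9 and 62.8 in R1, 106 and 118 in 16-6, 47.8 and 55.6 in 32, 309 in S8 and 296 in T2. R1 and line 32 overlapped, the 16-6 libraries lay above both, and S8 and T2 lay far above all others. Lefty1 rose 5.19-fold in S8 and 4.97-fold in T2 on the FPKM + 1 scale (log2 difference 2.38 ± 0.13 and 2.31 ± 0.13, limma, adjusted p = 0.000163 and 0.000321). In 16-6 the difference from R1 was 0.92 ± 0.11 (adjusted p = 0.00194), just under 2-fold, and it became 1.01 without R1 replicate 2 and 1.02 with median-of-ratios scaling, both called. Line 32 differed from R1 by -0.18, with an interval from -0.46 to 0.09. Between the 2 mesodermal lines Lefty1 was 2.14-fold higher in 16-6 (log2 difference 1.10 ± 0.11, adjusted p = 0.000826), a call that was lost without 32 replicate 1, at 0.99.

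Lefty2 did not follow Lefty1 across the lines. Its FPKM was 40.0 and 48.8 in R1, 37.4 and 38.8 in 16-6, 67.3 and 71.1 in 32, 92.2 in S8 and 88.2 in T2. Line 32, which was lowest for Lefty1, lay above R1 and 16-6 for Lefty2, and no library of 32 overlapped either. Lefty2 rose 2.06-fold in S8 (log2 difference 1.04 ± 0.12, limma, adjusted p = 0.00120), and the call was lost without R1 replicate 1, at 0.90, and with quantile normalization, at 0.85. In T2 the difference was 0.98 ± 0.12 (adjusted p = 0.00223), which passed 2-fold only without R1 replicate 2, at 1.12, or with median-of-ratios scaling, at 1.01. In line 32 it was 0.64 ± 0.099 (adjusted p = 0.00398) and in 16-6 -0.21, with an interval from -0.46 to 0.04.

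The balance of the 2 Lefty genes thus differed between lines. The ratio of Lefty1 to Lefty2 FPKM was 1.37 and 1.29 in R1, 2.82 and 3.05 in 16-6, 0.710 and 0.782 in line 32, and 3.35 in both S8 and T2. Lefty2 exceeded Lefty1 in line 32 and in no other line. The ratio of Lefty1 to Nodal, the ligand that it blocks, was 2.24 and 2.11 in R1, 3.59 and 3.99 in 16-6, 2.20 and 2.61 in 32, 6.76 in S8 and 6.24 in T2. The longest transcripts of Lefty1 and Lefty2 shared 281 stretches of 50 bases, which is 17.9% of those in Lefty1 and 11.6% of those in Lefty2, so the split of reads between the 2 paralogs is uncertain.

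Smad7, an inhibitory Smad that acts on receptors of the TGF-beta family (chr18:75527019-75555588, plus strand), separated S8 and T2 from the rest. Its FPKM was 18.4 and 19.1 in R1, 20.8 and 20.3 in 16-6, 18.8 and 18.1 in 32, 38.0 in S8 and 40.8 in T2. The 6 libraries of R1, 16-6 and 32 lay within a narrow band, and S8 and T2 were near 2-fold above it. Smad7 rose in T2 (log2 difference from R1 1.08 ± 0.052, limma, adjusted p = 0.000230). In S8 it was 0.98 ± 0.052 (adjusted p = 0.000152), just under 2-fold, and it was called without R1 replicate 2, at 1.00, and with median-of-ratios scaling or a pseudocount of 0.1, each at 1.02. For line 32 against R1 the difference was -0.02, with an interval from -0.13 to 0.09, and for 16-6 it was 0.13, with an interval from 0.02 to 0.24 (adjusted p = 0.0545).

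**Figure D1:**
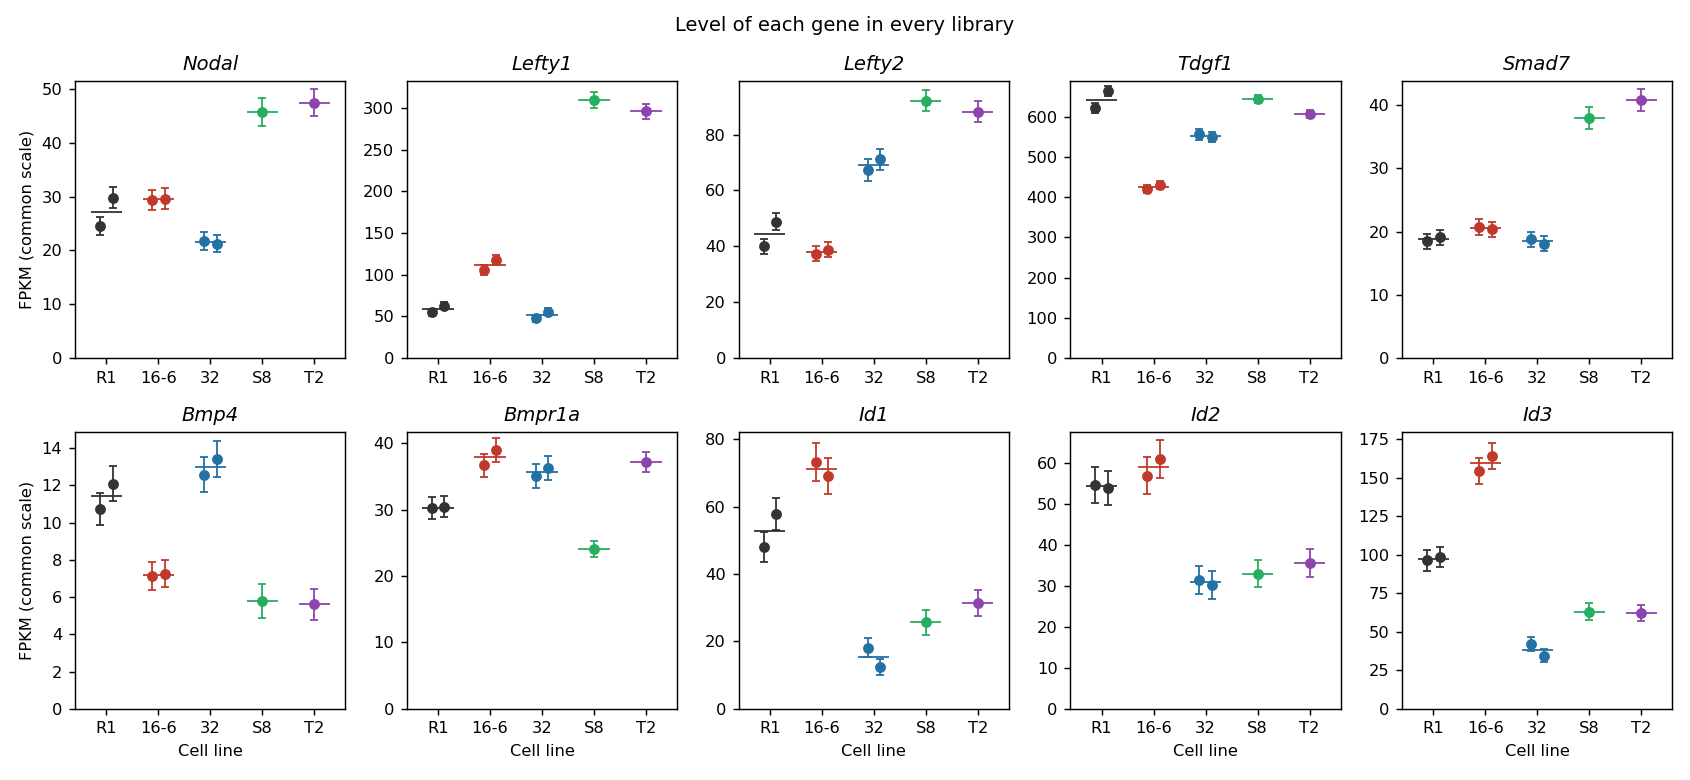
FPKM of each of the 10 genes in the 5 lines, on linear axes from 0, with a point per library, the Cufflinks confidence limits as error bars and a horizontal line at the line's mean. Lefty1, Lefty2, Nodal and Smad7 were highest in the single S8 and T2 libraries, while Id1 and Id3 were highest in 16-6 and lowest in 32.

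Bmp4, the ligand on the BMP side (chr14:47003196-47010274, minus strand), ran in the other direction from Lefty1 in S8 and T2. Its FPKM was 10.7 and 12.1 in R1, 7.13 and 7.25 in 16-6, 12.6 and 13.4 in 32, 5.78 in S8 and 5.61 in T2. S8 and T2 were lowest, 16-6 lay between them and R1, and the 2 libraries of 32 were the highest of all. The log2 difference from R1 was -0.87 ± 0.089 in S8, -0.91 ± 0.089 in T2 and -0.60 ± 0.073 in 16-6 (limma, adjusted p = 0.000828, 0.00119 and 0.00217), none reaching 2-fold, though T2 did with a pseudocount of 0.1, at -1.01. Line 32 exceeded R1 by 0.18, with an interval from -0.01 to 0.36, and was called higher than S8 and T2, by 1.04 and 1.08 (adjusted p = 0.000633 and 0.000991).

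Bmpr1a, a type I BMP receptor (chr14:35224254-35315732, minus strand), varied least after Tdgf1. Its FPKM was 30.2 and 30.4 in R1, 36.6 and 39.0 in 16-6, 35.1 and 36.3 in 32, 24.1 in S8 and 37.2 in T2. It was lowest in S8 and was the 1 member whose levels in S8 and T2 differed by the adjusted p, with a log2 difference of -0.61 ± 0.064 (limma, adjusted p = 0.00438). That difference is under 2-fold. Against R1 the values were 0.31 in 16-6, 0.23 in 32, -0.32 in S8 and 0.29 in T2.

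Id1, the classical immediate target of BMP signalling (chr2:152562010-152563146, plus strand), was lowest in line 32. Its FPKM was 47.9 and 57.7 in R1, 73.2 and 69.1 in 16-6, 18.2 and 12.5 in 32, 25.7 in S8 and 31.4 in T2. No line overlapped another, and the order was 16-6, R1, T2, S8, 32. Id1 fell by 1.73 ± 0.18 on the log2 scale in line 32 (limma, adjusted p = 0.00117) and by 1.01 ± 0.23 in S8 (adjusted p = 0.0122). The call in S8 was lost without R1 replicate 2, at -0.87 (adjusted p = 0.0531), without the filter on low values (adjusted p = 0.0558) and with median-of-ratios scaling, at -0.97 (adjusted p = 0.0137). In T2 the difference was -0.73 ± 0.23 (adjusted p = 0.0413) and in 16-6 0.43, with an interval from -0.04 to 0.90. Of the members, Id1 had the largest standard errors.

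Id3 moved in opposite directions from R1 in the 2 mesodermal lines (chr4:135699737-135701307, plus strand). Its FPKM was 96.3 and 98.6 in R1, 154 and 164 in 16-6, 41.9 and 34.6 in 32, 63.1 in S8 and 62.4 in T2. The 16-6 libraries were above R1, and S8, T2 and 32 were below it, with no overlap. Id3 fell by 1.33 ± 0.095 on the log2 scale in line 32 (limma, adjusted p = 0.000359). The difference was 0.70 ± 0.095 in 16-6, -0.62 ± 0.12 in S8 and -0.63 ± 0.12 in T2 (adjusted p = 0.00299, 0.00655 and 0.00780). Between 16-6 and 32 it reached 4.10-fold (log2 difference 2.04, adjusted p = 8.7e-05), beside 4.48-fold for Id1 (2.16, adjusted p = 0.000528).

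Id2 followed the same order of lines as Id1 with a smaller range (chr12:25778664-25780957, minus strand). Its FPKM was 54.7 and 53.9 in R1, 57.0 and 61.1 in 16-6, 31.4 and 30.3 in 32, 33.0 in S8 and 35.6 in T2. The 2 libraries of 32 were lowest, close to S8. The log2 difference from R1 was -0.80 ± 0.048 in 32, -0.70 ± 0.059 in S8 and -0.59 ± 0.059 in T2 (limma, adjusted p = 0.000230, 0.000456 and 0.00120), none reaching 2-fold. The ratio of Id3 to Id1 FPKM stayed between 1.71 and 2.76 in the 8 libraries, and that of Id3 to Id2 ran from 1.14 in line 32 to 2.71 in 16-6, against 0.710 to 3.35 for Lefty1 to Lefty2.

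**Figure D2:**
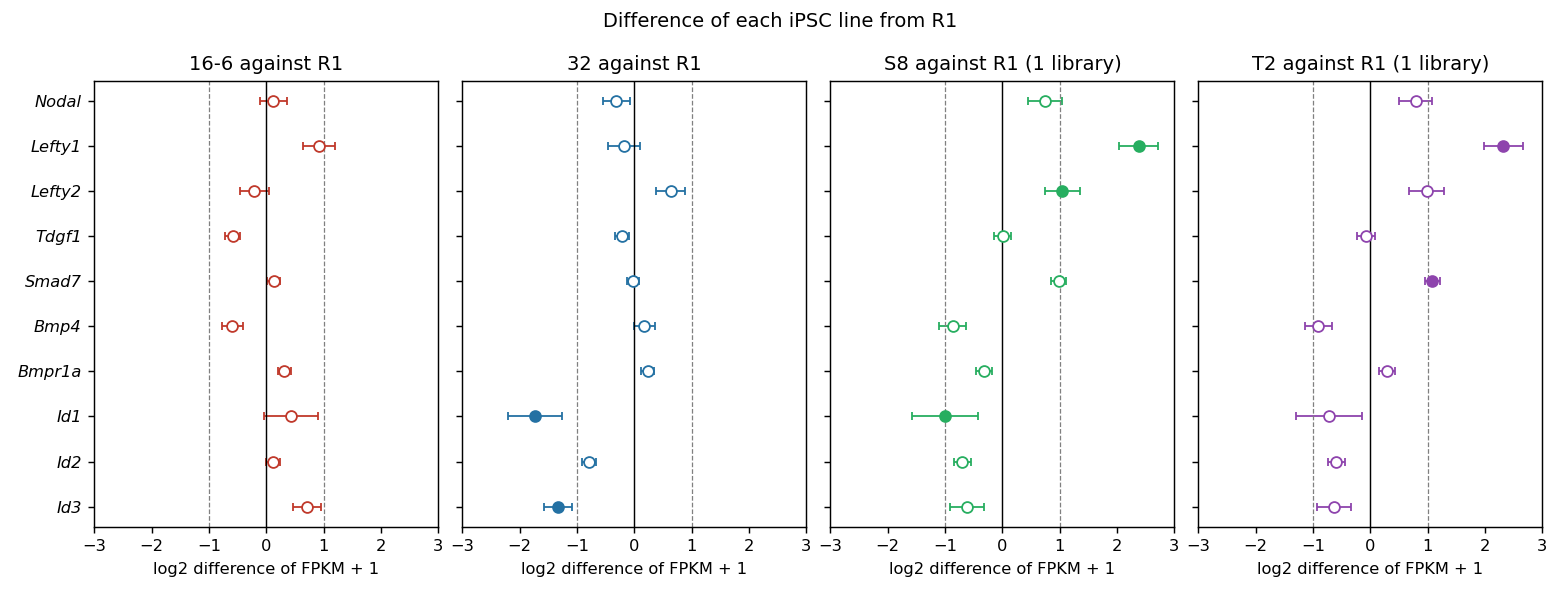
Difference of each iPSC line from R1 in log2(FPKM + 1) for the 10 genes, with 95% intervals from limma, filled points for called differences and dashed lines at 2-fold. The intervals of Lefty1 in S8 and T2 and of Id1 and Id3 in line 32 lie wholly past the dashed line.

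Counted over the 10 genes, 0 were called for 16-6 against R1 with limma, where 7.11% of all genes were, while 6 had an unadjusted p below 0.05. By adjusted p below 0.05, 5 passed, beside 55.6% of all genes. The share of all genes by unadjusted p was not examined for any comparison. For line 32 against R1, 2 were called lower (Id1 and Id3) beside 8.23% of all genes, and 0 higher, beside 1.54%. For S8, 2 were called higher (Lefty1 and Lefty2), beside 6.93% of all genes, and 1 lower (Id1), beside 9.74%. For T2, 2 were called higher (Lefty1 and Smad7), beside 3.95% of all genes, and 0 lower, beside 6.54%. Between 16-6 and 32, 3 were called higher in 16-6 (Lefty1, Id1 and Id3), beside 9.22%, and 0 lower, beside 1.09%. Between S8 and T2, 0 were called, beside 2.75%, and 1 had an unadjusted p below 0.05. Between 32 and S8, 4 members were called, beside 11.8% of all genes, and between 32 and T2, 5, beside 7.43%. Between 16-6 and S8, 4 were called, beside 17.3%, and between 16-6 and T2, 4, beside 8.07%. Without 32 replicate 2, the calls of Smad7 between 32 and S8 and of Id1 between 32 and T2 were lost, at -0.98 and -0.75. Both were also lost with quantile normalization, at -0.88 and -0.94, and with median-of-ratios scaling, at -0.96 each. Without the filter on low values, Id1 lost its calls for 32 against T2, at -1.01, and 16-6 against T2, at 1.16, by the adjusted p. The 4 comparisons with R1 share its 2 libraries. By adjusted p alone, 55.6% of all genes passed in 16-6, 61.5% in 32, 66.7% in S8 and 57.9% in T2, so a small p without a 2-fold difference was common among all genes.

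S8 and T2 are single libraries from tissues of different germ layers. Their log2 difference was -0.61 for Bmpr1a and ran from -0.28 for Id1 to 0.08 for Tdgf1 in the other 9 members. How common differences of this size were among all genes was not examined. The interval of the S8 minus T2 difference ran from -0.33 to 0.45 for Lefty1, from -0.39 to 0.29 for Nodal and from -0.95 to 0.39 for Id1. The last of these does not exclude a difference near 2-fold.

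The Nodal target genes were also set against the BMP target genes in each library. The mean log2(FPKM + 1) of Lefty1 and Lefty2 minus that of Id1, Id2 and Id3 was -0.35 ± 0.10 (SD, n = 2) in R1 and -0.42 ± 0.050 (n = 2) in 16-6. It was 1.16 ± 0.30 (n = 2) in line 32, 2.13 in S8 and 1.95 in T2. The values of R1 and 16-6 overlapped, and those of 32, S8 and T2 lay above 0. Line 32 reached its value with a Lefty mean of 5.92, close to 5.70 in R1, and an Id mean of 4.76, against 6.05 in R1. In S8 and T2 the Lefty mean was 7.41 and 7.35 and the Id mean 5.28 and 5.40. In 16-6 both were higher than in R1, at 6.05 and 6.47.

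The Id genes had their highest and lowest levels in the same lines as the mean of the fibroblast markers. Over 14 fibroblast markers, which include collagens, Dcn and Thy1, the mean log2 level was 5.38 and 5.45 in R1, 5.95 and 5.96 in 16-6, 1.92 and 1.96 in 32, 3.74 in S8 and 4.21 in T2. Their summed FPKM was 961 to 998 in R1, 1810 to 1825 in 16-6, 72.1 to 72.6 in 32, 415 in S8 and 601 in T2, and none of the 14 was at 0 in any library. The order of the lines by this mean, 16-6, R1, T2, S8, 32, was that of Id1, of Id2 and of the Id mean. Single markers could differ from it. Dcn was at a mean of 210 FPKM in R1 and 33.1 in 16-6, and Lum and Col3a1 were also higher in R1. Several neighbours in this order were close. Between 16-6 and R1 the adjusted p was 0.104 for Id1 and 0.0915 for Id2 (limma). T2 exceeded S8 by 0.28 (log2) for Id1 and 0.11 for Id2, and S8 exceeded 32 by 0.095 for Id2. For Id3, S8 and T2 stood in the other order, at 63.1 and 62.4 FPKM. Against R1, 14 of the 14 were called lower in 32, 8 in S8 and 7 in T2, while 7 were called higher and 2 lower in 16-6. Of all genes, 8.23% were called lower in 32, 9.74% in S8 and 6.54% in T2. In 16-6, 3.58% of all genes were called higher and 3.53% lower. All lines were grown on fibroblast feeders, and the part of feeder RNA in the Id levels was not tested. The Lefty genes did not share this order, since S8 and T2 were highest and R1 and 16-6 lay apart for Lefty1.

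**Figure D3:**
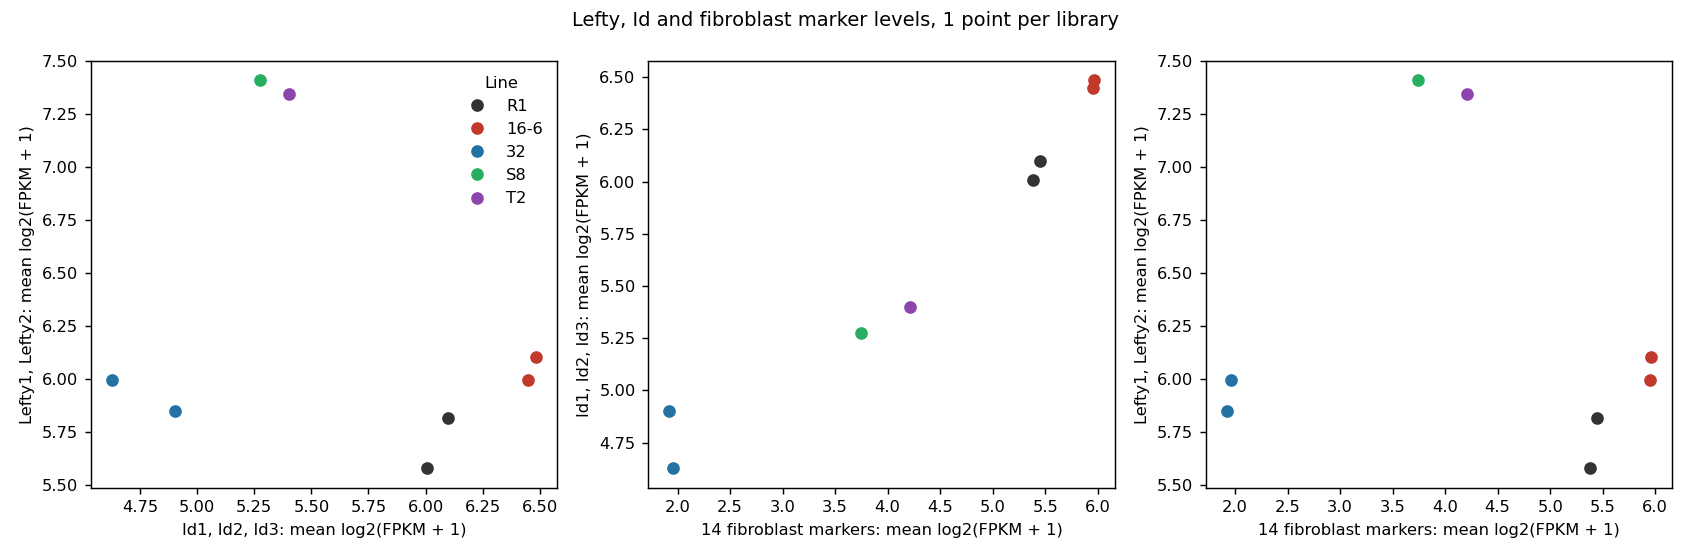
Mean log2(FPKM + 1) in each library, coloured by line, of the 2 Lefty genes against the 3 Id genes (left), of the Id genes against 14 fibroblast markers (middle) and of the Lefty genes against the same markers (right). The Id mean is lowest in 32, at the low end of the fibroblast axis, and highest in 16-6, at its high end, whereas the Lefty mean is highest in S8 and T2 in between.

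Beyond the 10 genes, 72 further genes of the 2 pathways were listed and 62 passed the filter on low values. Of these, 10 were called higher and 0 lower in 16-6 against R1, 4 higher and 14 lower in 32, 5 and 13 in S8, and 5 and 8 in T2. Of all genes tested, 3.58% were called higher and 3.53% lower in 16-6, 1.54% and 8.23% in 32, 6.93% and 9.74% in S8, and 3.95% and 6.54% in T2, and the counts of each side of the pathways are to be read against these shares. The median log2 difference of the tested pathway genes was 0.37 in 16-6, -0.31 in 32, -0.42 in S8 and -0.15 in T2, where the median of all genes was -0.03, -0.02, -0.03 and -0.03. Between 16-6 and 32, 21 were called higher in 16-6 and 1 lower, beside 9.22% and 1.09% of all genes.

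On the Nodal, activin and TGF-beta side, Foxh1, the DNA-binding partner of Smad2 and Smad3 at Nodal target genes, was highest in the lines with the highest Lefty1. Its FPKM was 27.3 and 28.4 in R1, 40.5 and 36.7 in 16-6, 42.0 and 43.2 in 32, 90.8 in S8 and 76.7 in T2, and it rose in S8 and T2 (log2 difference 1.67 and 1.43). Gdf1, a ligand that pairs with Nodal, rose by 2.34 in S8 and 1.64 in T2, from 2.70 and 3.23 FPKM in R1 to 19.0 and 11.4, though its locus overlaps another gene, Cers1, and the reads may be of either. Tgif2, a repressor that binds Smads, also rose in both, by 1.42 and 1.23. Smad3 went the other way and fell in S8 by 1.40, from 11.7 and 13.1 FPKM in R1 to 4.09. Its difference from R1 was -0.86 in 32 and -0.40 in T2, neither called. The mesendoderm gene Eomes, a Nodal target, rose in 16-6 and 32 (log2 difference 1.32 and 2.02) and differed from R1 by -0.15 in S8 and 0.54 in T2, neither called.

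Inhba, which encodes the activin A subunit, was at 48.4 and 46.5 FPKM in R1, rose in 16-6 to 148 and 142, and fell in 32 to 8.15 and 6.47, in S8 to 10.3 and in T2 to 13.8. Tgfb3 rose by 1.60 in 16-6 and fell by 1.42 in 32. The receptors Tgfbr2 and Tgfbr3 fell in line 32 by 2.01 and 2.47 and in S8 by 1.35 and 2.83. Inhba, Tgfb3 and Tgfbr2 had the line order of the mean of the 14 fibroblast markers (16-6, R1, T2, S8, 32). Of these markers, 14 were called lower in 32, 8 in S8 and 7 in T2. The part of feeder RNA in the levels of Inhba, Tgfb3 and Tgfbr2 was not tested. Over the Nodal, activin and TGF-beta lists 34 of 36 genes were tested, and 8 were called higher and 0 lower in 16-6, 4 and 7 in 32, 4 and 6 in S8, and 4 and 3 in T2, beside 3.58% and 3.53%, 1.54% and 8.23%, 6.93% and 9.74%, and 3.95% and 6.54% of all genes.

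On the BMP side 25 of 33 listed genes were tested, and 2 were called higher and 0 lower in 16-6, 0 and 6 in 32, 1 and 7 in S8, and 1 and 5 in T2, beside the same shares of all genes, 3.58% and 3.53% in 16-6 and 1.54% and 8.23% in 32 among them. The called genes were ligands, receptors, secreted antagonists and targets. The 6 effectors Smad1, Smad5, Smad9, Smad6, Smurf1 and Smurf2 gave 0 calls against R1 in any line with limma. By adjusted p below 0.05 alone, 6 passed in 16-6 and 5 in 32, beside 55.6% and 61.5% of all genes. Their median log2 difference from R1 was 0.43 in 16-6, -0.36 in 32, -0.39 in S8 and -0.23 in T2. Between 16-6 and 32, 2 of the 6 were called higher in 16-6, beside 9.22% of all genes. Grem1, an antagonist that binds BMP outside the cell, was at 16.4 and 17.6 FPKM in R1 and fell by 2.23 in 32, 2.18 in S8 and 1.72 in T2. The secreted BMP-binding Fstl1 also fell in these 3 lines, by 2.49, 1.72 and 1.06. Grem1 and Fstl1 had the same line order as the mean of the fibroblast markers. Of the 14 markers, 14, 8 and 7 were called lower in the same 3 lines, beside 8.23%, 9.74% and 6.54% of all genes. The part of feeder RNA was not tested here either.

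Bmp2, a low-abundance ligand that signals like Bmp4, fell in 32, S8 and T2 by 1.03, 1.38 and 1.15 from 1.82 and 2.19 FPKM in R1. Bmpr2, the type II receptor that pairs with Bmpr1a, fell by 2.20 in S8, where its FPKM was 1.38, against 9.23 and 10.8 in R1 and 7.79 in T2. The E proteins Tcf3, Tcf4 and Tcf12 are the partners that Id proteins bind, and of these Tcf4 fell in line 32, by 1.10. No other call was made for them against R1.

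**Figure D4:**
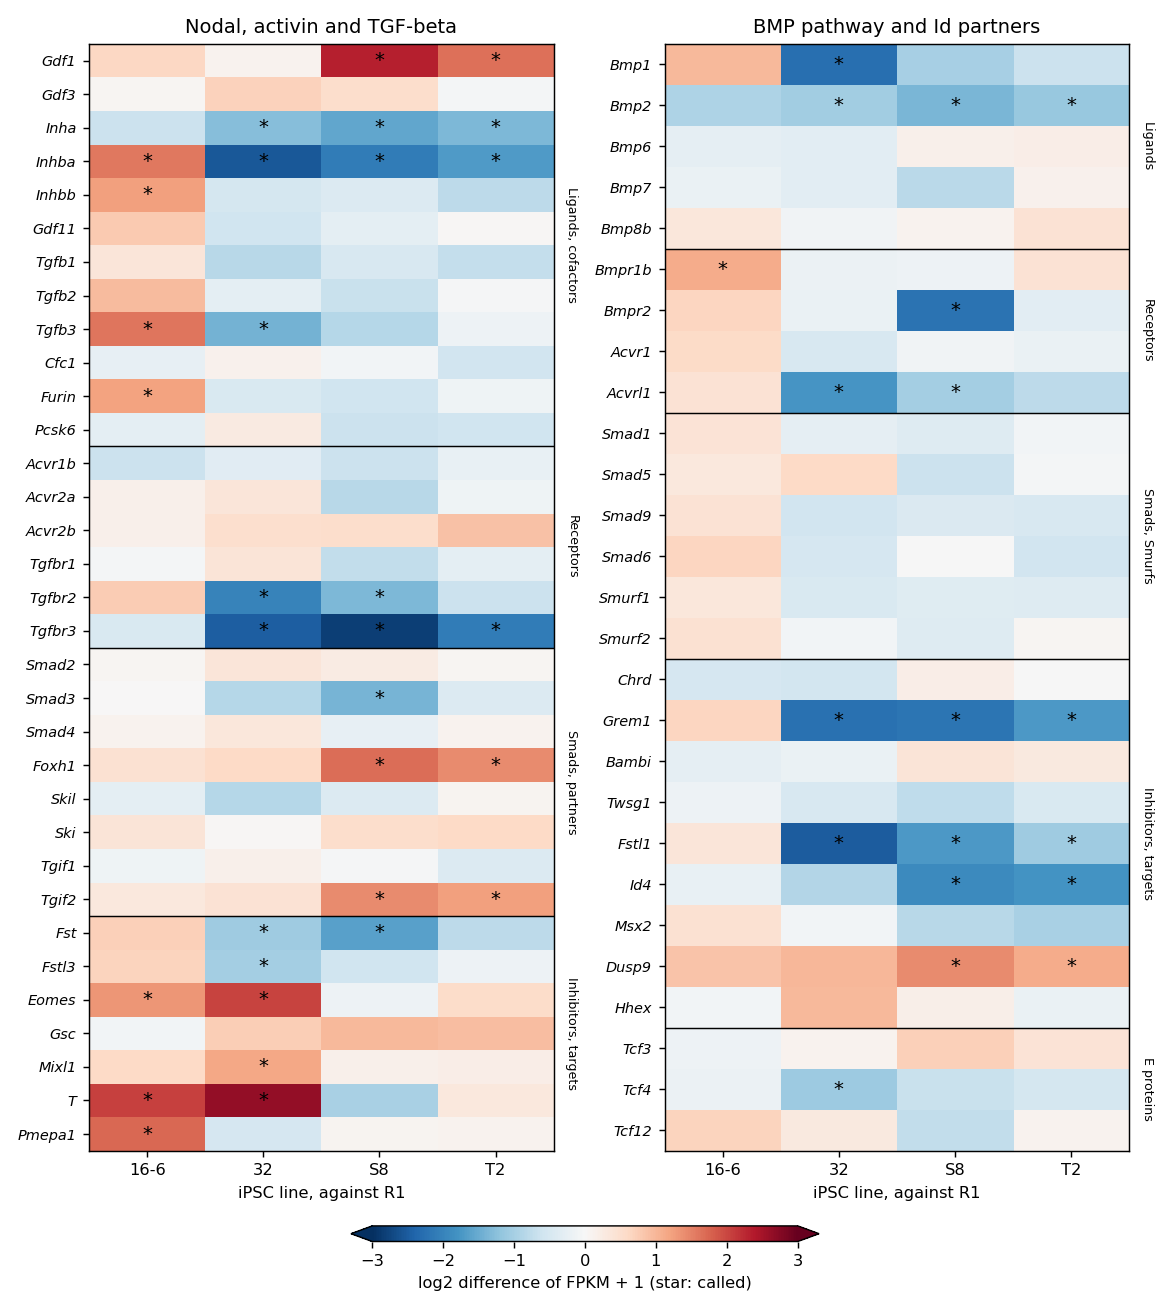
Heat map of the log2 difference of FPKM + 1 from R1 for 60 of the 62 tested genes of the Nodal, activin and TGF-beta lists (left) and of the BMP and Id partner lists (right), with columns for the 4 iPSC lines and stars on called differences. Foxh1, Gdf1 and Tgif2 are starred in S8 and T2, and the rows of BMP Smads and Smurfs hold no star.

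The profile of Lefty1 over the 8 libraries was most like those of Cend1 (Pearson r = 0.997), 9530082P21Rik (0.990), Ddr1 (0.987) and Pik3r2 (0.985), among 4970 genes whose line means spanned at least 2-fold. The profile of Id1 was most like those of Maml2 (r = 0.994), Sfxn3 (0.991), Pon3 (0.991) and 2610034B18Rik (0.989). The 8 points share 5 lines, so these values describe likeness only.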

How the data were processed

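RNA of 5 mouse lines was sequenced in 8 libraries, and the authors deposited a Cufflinks table of gene FPKM values for each library. The submitters' processing notes name TopHat2 2.0.4, Bowtie and Cufflinks 2.0.0 with the mm9 build. The authors kept uniquely aligned reads, which affects paralogs such as Lefty1 and Lefty2. The libraries were made with the Illumina TruSeq RNA kit, which does not mark strand, so reads of overlapping genes cannot be told apart.

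The deposited FPKM summed to 1.14408e+10 to 1.60283e+10 per library, so all values were divided by 12725.7, a single constant that leaves ratios between libraries as deposited. Fragments were estimated from the confidence limits, whose half-width was taken as 2 square roots of the count, so limits cover counting error only. Groups came from the labels. Differences were tested in R 4.3.3 with limma 3.58.1 (trended eBayes, 3 residual degrees of freedom, all 8 libraries in 1 model) on log2(FPKM + 1), for 13693 genes that reached 1 FPKM in any library. Genes were called at a Benjamini-Hochberg adjusted p below 0.05 and at least 2-fold. The script was tested on simulated data. Tables and figures were made with Python 3.11.15.

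Apart from the members, named genes were up to the 3 called genes of each pathway list with the largest difference from R1, and the 4 genes most like Lefty1 and Id1 by Pearson correlation. Values of 2 listed pathway genes are not reported here, though the counts include them. Loci came from the NCBIM37 annotation, which is mm9, and promoters from RefSeq. Alternatives were another pseudocount, low-value filters, scalings, a fit without trend, no fold minimum, a replicate block and leaving out libraries. The members and lists were chosen with earlier results of these data known.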

Additional observations from a re-analysis of the deposited data

Results flagged for a closer look

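Nodal was flagged because its difference from R1 had opposite signs in line 32 and in S8 and T2, each with an adjusted p below 0.05. It was -0.32 in 32, 0.74 in S8 and 0.79 in T2, and the direct difference was -1.06 for 32 against S8 (limma, adjusted p = 0.00125; under 2-fold with quantile normalization, at -0.93) and -1.11 for 32 against T2 (adjusted p = 0.00174). S8 and T2 are single libraries.

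Id3, the BMP target, was flagged for the same reason between 16-6 and the other 3 iPSC lines. Its difference from R1 was 0.70 in 16-6, -1.33 in 32, -0.62 in S8 and -0.63 in T2. The direct difference was 2.04 for 16-6 against 32 (limma, adjusted p = 8.7e-05), 1.32 for 16-6 against S8 (adjusted p = 0.000513) and 1.34 for 16-6 against T2 (adjusted p = 0.00108). The mean level of the fibroblast markers was also highest in 16-6 and lowest in 32, and their part in the Id3 levels was not tested.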

How the results depend on the processing

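With no fold minimum the members called numbered 5 in 16-6, 7 in 32, 9 in S8 and 9 in T2 against R1, 9 between 16-6 and 32 and 1 between S8 and T2 (0, 2, 3, 2, 3 and 0 with it), and the pathway genes 46, 49, 48, 38, 53 and 28 (10, 18, 18, 13, 22 and 2). Of all genes, 55.6% passed without the fold minimum in 16-6, 61.5% in 32, 66.7% in S8 and 57.9% in T2 against R1. The share for 16-6 against 32 and for S8 against T2 was not examined, so their counts cannot be read as an excess. For 16-6 against R1, 1 member, Lefty1, was called with median-of-ratios scaling and without R1 replicate 2, so leaving out libraries gave 0 to 1. The pathway count was 11 for 32 against R1 and 1 for S8 against T2 when 1 FPKM was required in each library, and 7 for S8 against T2 with a pseudocount of 0.1. Under quantile normalization the S8 minus T2 difference changed sign for Lefty1 (-0.19), Lefty2 (-0.11), Tdgf1 (-0.22) and Id3 (-0.13), and that of S8 minus R1 for Tdgf1 (-0.33). Smad7 in 32 against R1 became 0.046 with quantile normalization, 0.053 with median-of-ratios scaling, 0.0017 without R1 replicate 2 and 0.0046 without 32 replicate 2, and ran from -0.047 when a library was left out. Without R1 replicate 1, Nodal in 16-6 became -0.015 (highest 0.26) and Tdgf1 in S8 -0.042 (highest 0.051), and without 16-6 replicate 2 Bmpr1a in 16-6 against T2 became -0.019 (highest 0.069). The cause was not tested. Of the member differences recomputed, 1325 kept their direction and side of the threshold, 8 gained a call, 15 lost it and 12 changed sign.

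Samples with the same replicate number did not deviate together (correlations -0.097, 0.0010 and 0.028), so the numbers do not pair them. With a replicate block on the 6 libraries of R1, 16-6 and 32, the members called were 0, 2 and 3 and the pathway genes 10, 18 and 22 for 16-6 against R1, 32 against R1 and 16-6 against 32, as without it. With 3 residual degrees of freedom and 1 library each of S8 and T2, differences near 2-fold depend on single R1 libraries.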

Other observations

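The summed FPKM of the mesendoderm markers (T, Mixl1, Eomes, Gsc, Mesp1, Foxa2 and Lhx1) was 6.69 to 7.03 in R1, 22.9 to 23.1 in 16-6, 38.4 to 39.0 in 32, 6.70 in S8 and 11.8 in T2, so line 32, with the lowest Nodal, had the highest sum. Most of the sum in 32 was T (18.8 and 17.5) and Eomes (14.4 and 15.3). Mixl1 and Lhx1, both low, were also highest in 32. Gsc was highest in S8 and Foxa2 in T2, and Mesp1 was at 0 in 32. Primitive endoderm markers summed to 9.78 to 27.1 and neural markers to 3.83 to 6.01 over the libraries.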
